A study of Mus musculus with 4 samples.

Results

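Tbx21, Ifng, Stat4 and Runx3 were examined as the core of the type 1 programme in lung T helper 2 (Th2) cells. They were taken from the authors' deposited table by gene symbol, and all 4 were found among its 11883 genes. Type 1 immunity rests on interferon gamma, the cytokine that activates macrophages and is encoded by Ifng. In T cells, interleukin-12 acts through the transcription factor STAT4, and the T-box factor T-bet, encoded by Tbx21, together with the Runt-domain factor RUNX3 opens and activates Ifng while holding down Il4. Th2 cells are instead specified by GATA3, which opposes this programme, so Tbx21 and Ifng are normally low in them.

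The cells came from lungs of C57BL/6 mice given papain, an allergenic plant protease, on a chronic schedule, and were sorted alive by CD4 and by T1/ST2, the interleukin-33 receptor encoded by Il1rl1. Both groups carried Gata3 alleles flanked by Cre target sites, Gata3(fl/fl), and 2 samples had that genotype alone (control below). The other 2 were Klrg1Cre Gata3(fl/fl), with a Cre recombinase named for Klrg1, an inhibitory receptor of differentiated lymphocytes (Klrg1Cre below). The column headers call the groups WT and ILC2 deficient (ILC2, group 2 innate lymphoid cells), which were read as control and Klrg1Cre although no label states that link. No group had the Cre allele without the flanked Gata3, so an effect of Cre, of Gata3 loss inside the sorted cells and of missing ILC2 cannot be told apart. The labels do not say whether samples were separate mice, so the p-values below describe sample-to-sample spread, part of which may be technical.

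The table holds 1 mean per genotype in CPM, reads scaled to a library's total. Its fold changes and p-values are the authors', with Benjamini-Hochberg adjustment over 11883 genes and a threshold of 0.05. Single libraries were worked out from the means where only 1 pair of whole read numbers gives the mean, which succeeded in both groups for 5351 genes (45.0%), Tbx21 and Ifng among them. The library totals found in this way were 26019065 and 14564426 reads in Klrg1Cre and 33379572 and 31961572 in control, and each library is named as the larger or smaller of its group. Rn45s, the ribosomal RNA precursor, took 67.1% of Klrg1Cre reads against 51.4% of control reads, while the other listed genes took 18.2% and 17.8%. The T cell marker Cd3e had means of 76.6 CPM in Klrg1Cre against 73.04 in control in the authors' deposited table, Cd4 had 167.6 against 150.1 and the sort marker Il1rl1 59.1 against 68.0. Of the 11 T cell markers with a row, 5 had higher and 6 lower Klrg1Cre means. The targeted gene Gata3 did not have a lower mean in Klrg1Cre, at 293.9 against 221.4 CPM (adjusted p = 0.551 in the authors' deposited table). Where in the gene its reads lay was not analysed here, so its level does not check the labels.

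By the test of the authors' deposited table, 0 of 4 genes had an adjusted p below 0.05, and 0 of 4 had an unadjusted p below 0.05. Among all genes 0.0589% passed with adjustment, 0.0252% with higher and 0.0337% with lower Klrg1Cre means. Without adjustment, 3.72% of all genes were called with higher and 3.37% with lower Klrg1Cre means. Ratios of Klrg1Cre to control were 2.08 for Ifng, 1.51 for Tbx21, 1.28 for Runx3 and 0.927 for Stat4. In log2 units these are 1.05, 0.59, 0.36 and -0.11, where the median over all genes was 0.01. Runx3 had the smallest p of the group, at rank 1117 of 11883 in the table, followed by Tbx21 at rank 1904, Ifng at rank 2896 and Stat4 at rank 7204.

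**Figure D1:**
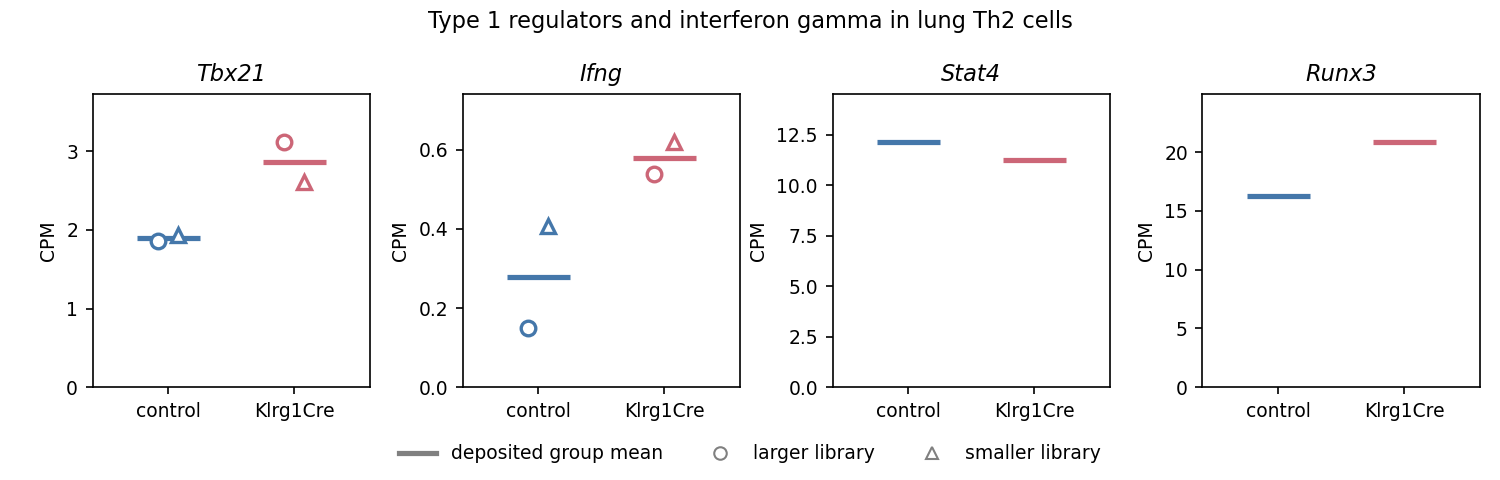
Level in CPM (y axis, from 0, each panel on its own scale) of Tbx21, Ifng, Stat4 and Runx3 in control and Klrg1Cre. Horizontal bars are deposited group means, circles the larger and triangles the smaller library of a group; Tbx21 and Ifng show both Klrg1Cre libraries above both control libraries, and Stat4 and Runx3 have means alone.

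Tbx21 encodes T-bet, the factor that defines type 1 lymphocytes. Its reads numbered 81 in the larger Klrg1Cre library and 38 in the smaller one, against 62 in each control library. Scaled by library total, the larger and smaller Klrg1Cre libraries stood at 3.11 and 2.61 CPM and the larger and smaller control libraries at 1.86 and 1.94 CPM. Both Klrg1Cre values thus lay above both control values, and the groups did not overlap. Over all 5351 genes with single libraries, 19.3% had both Klrg1Cre libraries above both control libraries and 18.3% had both below. Exact Poisson 95% intervals, which cover counting error alone, ran from 2.47 to 3.87 and from 1.85 to 3.58 CPM for the Klrg1Cre libraries. For the control libraries they ran from 1.42 to 2.38 and from 1.49 to 2.49 CPM, so the interval of the smaller Klrg1Cre library overlapped both of them and that of the larger one overlapped the interval of the smaller control library.

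The Klrg1Cre mean of Tbx21 was 2.86 CPM ± 0.356 (SD, n = 2) and the control mean 1.90 CPM ± 0.0583 (SD, n = 2). In the authors' deposited table its p was 0.123 and its adjusted p 0.764. A limma fit of the single libraries on the log2(CPM + 1) scale gave a difference of 0.41 with a standard error of 0.23 (adjusted p = 0.728 over 4242 genes). With 1 library left out, log2 ratios ran from 0.46 without the larger Klrg1Cre library to 0.71 without the smaller one. Their direction could not change, since the groups did not overlap. With 2 libraries against 2, an exact permutation test of a single gene cannot give a two-sided p under 0.333, so none was run.

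Ifng encodes interferon gamma itself and was close to the limit of detection in these sorted Th2 cells. It had 14 and 9 reads in the larger and smaller Klrg1Cre libraries and 5 and 13 reads in the larger and smaller control libraries. Scaled by library total, the values are 0.538 and 0.618 CPM for Klrg1Cre against 0.150 and 0.407 CPM for control. Both Klrg1Cre libraries again lay above both control libraries, while the control libraries differed 2.72-fold from each other. Counting intervals were wide, from 0.294 to 0.903 and from 0.283 to 1.17 CPM in Klrg1Cre. In control they were 0.0486 to 0.350 and 0.217 to 0.696 CPM, so every Klrg1Cre interval overlapped every control interval.

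The Ifng means were 0.578 CPM ± 0.0565 (SD, n = 2) in Klrg1Cre and 0.278 CPM ± 0.182 (SD, n = 2) in control. The authors' deposited table gives a p of 0.194 and an adjusted p of 0.794 for Ifng. The size of its difference rested on the control libraries: the log2 ratio was 1.05 with all, 0.51 without the larger control library and 1.95 without the smaller one. With 23 Klrg1Cre and 18 control reads in all, Ifng did not pass the test, which does not show that a change of this size is absent. In bulk RNA a smaller share of cells making a transcript and less transcript per cell cannot be told apart, which holds for every gene here.

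The base sequence before the Ifng start was searched for the short motifs that the listed factors are known to bind, on both strands. These were TGTGGT for Runx factors, GGTGTG for T-box factors and TTCNNNGAA for STAT factors, which do not overlap in the sequences shown. Sequences are the 250 bases before a RefSeq transcript start on GRCm38.p6, a later build than the mm9 of the submitters' processing notes. Positions count back from that start, and capitals mark motif matches. The Ifng stretch lies on the plus strand at chr10:118440796-118441045 and is shown because this is the target gene of the other 3 factors.
Ifng: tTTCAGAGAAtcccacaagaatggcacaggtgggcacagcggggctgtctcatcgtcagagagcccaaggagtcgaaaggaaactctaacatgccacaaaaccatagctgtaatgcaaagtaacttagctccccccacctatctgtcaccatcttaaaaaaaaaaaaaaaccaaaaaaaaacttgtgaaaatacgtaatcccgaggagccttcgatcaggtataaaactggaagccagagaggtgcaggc
It holds 1 STAT match, TTCAGAGAA at position -249, and no match to the Runx or T-box letters. Of 32851 promoter stretches of this length, 7.02% hold the STAT motif, 14.05% the Runx motif, 16.3% the T-box motif and 68.2% none of them. The stretch of Tbx21 (chr11:97115332-97115581, minus strand) and both stretches of Stat4 hold none. A match here is a description of letters, not a binding site.

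Runx3 encodes a Runt-domain factor that cooperates with T-bet at Ifng and, in CD8 T cells, silences Cd4. Its deposited means were 20.8 CPM in Klrg1Cre and 16.2 CPM in control, with a p of 0.0683 and an adjusted p of 0.726 in the authors' deposited table. The means of Runx3 could not be split into whole reads, so its spread between libraries is unknown and no SD is given. The other Runt-domain genes did not share one direction in the same table. Runx2 had 22.4 against 17.5 CPM (adjusted p = 0.698) in the authors' deposited table, close to the ratio of Runx3. Runx1 had 29.7 against 32.9 CPM (adjusted p = 0.873), and Cbfb, the shared non-DNA-binding partner, 7.40 against 6.19 CPM (adjusted p = 0.839 in the authors' deposited table).

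Runx3 has 2 RefSeq start regions, and the first of them is shown because it carries matches to the motif of its own family. It lies on the plus strand at chr4:135120395-135120644.
Runx3: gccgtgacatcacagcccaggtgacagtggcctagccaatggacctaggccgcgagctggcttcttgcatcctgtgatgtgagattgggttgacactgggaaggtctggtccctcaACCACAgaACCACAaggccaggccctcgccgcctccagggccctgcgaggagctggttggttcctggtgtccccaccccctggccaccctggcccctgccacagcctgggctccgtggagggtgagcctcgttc
The letters ACCACA, the Runx motif read on the opposite strand, occur at positions -134 and -126. A pair or more of Runx matches is found in 1.27% of all 32851 stretches. The second start region of Runx3, at chr4:135152295-135152544, holds none of the 3 motifs. The deposited table has 1 value per gene, so use of the 2 start regions was not analysed here.

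Stat4 encodes the factor through which interleukin-12 and type I interferon drive Ifng. Its deposited means were 11.2 CPM in Klrg1Cre and 12.1 CPM in control, 1.08-fold lower, with a p of 0.560 and an adjusted p of 0.924 in the authors' deposited table. Its means could not be split into libraries. All 7 STAT genes had lower Klrg1Cre means, as did 5869 of all 11883 genes. Their median log2 ratio was -0.11 against 0.01 over all genes, and 0 of 7 passed adjustment. Stat2 had 23.4 against 29.7 CPM (adjusted p = 0.704) and Stat3, which relays interleukin-6 signals, 112.6 against 124.3 CPM (adjusted p = 0.838 in the authors' deposited table).

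**Figure D2:**
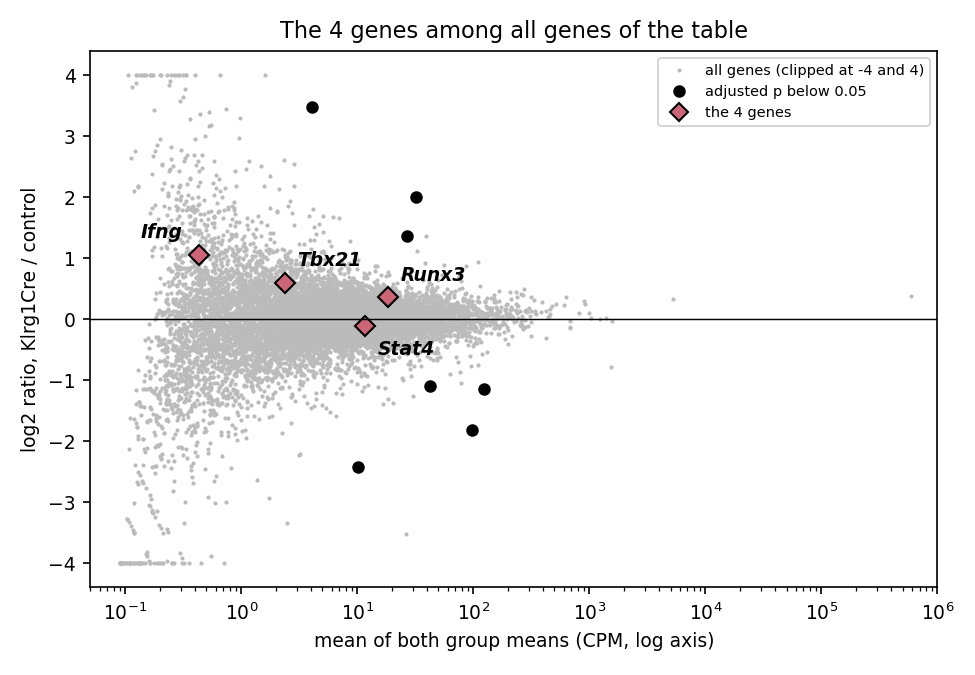
Each dot is a gene: the mean of both deposited group means in CPM (x, log axis) against the log2 ratio of Klrg1Cre to control (y, clipped at both ends). Black dots are the 7 genes with an adjusted p below 0.05, and the diamonds show Ifng, Tbx21, Stat4 and Runx3 inside the cloud of genes with like means, which widens toward low means.

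Upstream of these genes lie the receptors for interleukin-12, interleukin-18 and interleukin-27 and their kinases. In the authors' deposited table, 11 of 12 genes of that list had a row, Il12rb2 being the exception, and 0 of 11 passed adjustment in either direction. Il18r1, a chain of the interleukin-18 receptor that Th1 cells carry, had 12.1 CPM in Klrg1Cre against 7.94 in control (adjusted p = 0.581 in the authors' deposited table). Il12rb1, the shared chain of the interleukin-12 and interleukin-23 receptors, had 30.2 against 22.1 CPM (adjusted p = 0.612 in the authors' deposited table). Its libraries did not overlap, with 30.5 and 29.9 CPM in the larger and smaller Klrg1Cre libraries and 19.1 and 25.03 in the control ones. Without the larger control library the log2 ratio of Il12rb1 was 0.27, against 0.45 with all. Il6st, the gp130 chain through which interleukin-27 signals, had 7.37 against 9.99 CPM (adjusted p = 0.705 in the authors' deposited table). Of the 7 genes of this list with single libraries, 2 had both Klrg1Cre libraries above both control libraries. For 1 (Il6st) both lay below. The shares over all such genes were 19.3% above and 18.3% below. Of the 11 genes 2 had a higher and 0 a lower mean at an unadjusted p below 0.05, against 3.72% and 3.37% of all genes. The list median log2 ratio was 0.03.

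Downstream, genes of the interferon gamma receptor and response had mostly lower means while the mean of Ifng was higher. Of the 16 listed genes in the authors' deposited table, 12 had lower and 4 higher Klrg1Cre means, and 0 passed adjustment. Without adjustment, 5 passed with lower means and 0 with higher means. Of all genes, 5869 had lower and 6014 higher Klrg1Cre means, and 3.37% and 3.72% passed without adjustment in these directions. Among the 5 were the interferon-induced GTPase genes Gbp7, Irgm1, Gbp3 and Igtp. Gbp7 had 36.1 against 52.7 CPM (adjusted p = 0.321), Irgm1 20.999 against 30.8 CPM (adjusted p = 0.638) and Igtp 39.4 against 49.5 CPM (adjusted p = 0.679 in the authors' deposited table). Gbp3 stood at 10.6 against 15.4 CPM (adjusted p = 0.666 in the authors' deposited table). The receptor genes Ifngr1 and Ifngr2 had deposited means of 155.4 against 166.7 and 14.4 against 16.2 CPM, with adjusted p of 0.913 and 0.867. Irf1, an interferon-induced transcription factor, had 27.5 against 26.6 CPM (adjusted p = 0.963 in the authors' deposited table). The list median log2 ratio was -0.21. Many of these genes also respond to type I interferon.

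Partners and modifiers of T-bet and RUNX3 formed a list of 15 genes, of which 13 had a row in the authors' deposited table. With adjustment, 0 of the 13 passed. At an unadjusted p below 0.05, 5 had higher and 1 a lower Klrg1Cre mean, against 3.72% and 3.37% of all genes. The list median log2 ratio was 0.26. Zbtb32, encoding a zinc finger repressor that restrains cytokine production, had the largest ratio of the list, 9.60 against 4.90 CPM (adjusted p = 0.510 in the authors' deposited table). Zeb2, which acts with T-bet in terminal effector differentiation, had 26.3 against 17.4 CPM (adjusted p = 0.606 in the authors' deposited table). Id2, an inhibitor of E proteins, had 177.9 and 160.2 CPM in the larger and smaller Klrg1Cre libraries and 136.3 and 131.6 CPM in the control ones (adjusted p = 0.612 in the authors' deposited table). For Bhlhe40, a factor needed for cytokine output of helper T cells, these libraries held 115.2 and 100.6 against 89.4 and 86.1 CPM (adjusted p = 0.698 in the authors' deposited table). Of the 5 genes of this list with single libraries, 2 (Id2 and Bhlhe40) had both Klrg1Cre libraries above both control libraries. For 1 (Mxd1) both lay below. The shares over all such genes were 19.3% above and 18.3% below. Both Id2 and Bhlhe40 are also expressed in Th2 cells and ILC2. Mxd1, a MYC antagonist, had the lower mean of the 6, 24.3 against 32.9 CPM (adjusted p = 0.604 in the authors' deposited table). Runx2 was the remaining gene, given above, and Hlx, a T-bet partner at Ifng, had 0.556 against 0.514 CPM (adjusted p = 0.960 in the authors' deposited table).

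**Figure D3:**
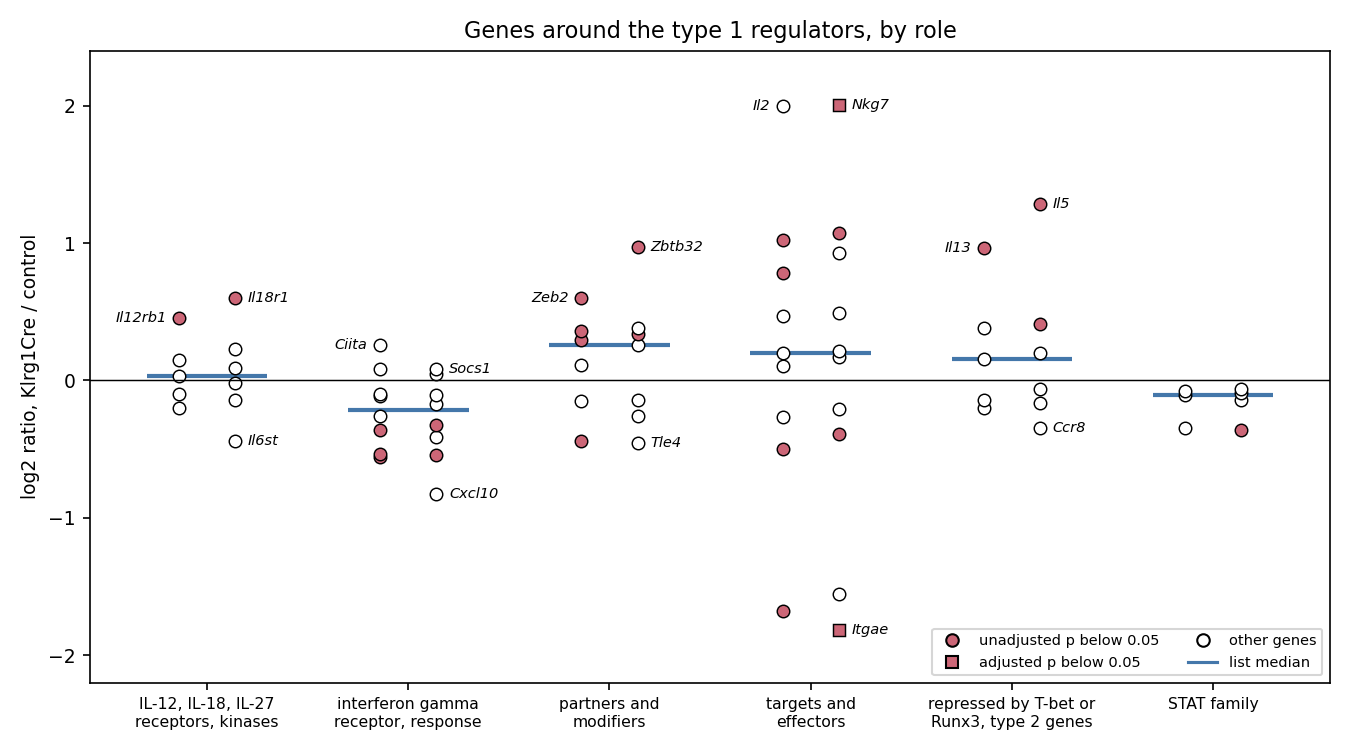
Log2 ratio of Klrg1Cre to control (y) for each gene of the 6 role lists (x), from the deposited means. Filled symbols have an unadjusted p below 0.05, squares an adjusted p below 0.05, and blue bars mark list medians, which lie between -0.21 and 0.26.

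Of the 22 targets and products of type 1 cells, 19 had a row in the authors' deposited table. With adjustment Nkg7 rose and Itgae fell, 1 gene in each direction, against 0.0252% of all genes with higher and 0.0337% with lower means. Itgae and Nkg7 rank 1 and 2 by p among all 11883 genes, and the list was chosen with earlier results known. That they pass on this list is therefore no independent support. Nkg7, which encodes a protein of cytotoxic granules and is a T-bet target, had 58.7 and 43.8 CPM in the larger and smaller Klrg1Cre libraries against 11.2 and 14.3 CPM in control. Its ratio was 4.02 (adjusted p = 0.0112 in the authors' deposited table). Itgae, the CD103 integrin chain that Runx3 promotes in CD8 T cells, stood at 42.8 against 150.9 CPM (adjusted p = 0.00949 in the authors' deposited table). At an unadjusted p below 0.05, 4 of the 19 had higher means (Nkg7, Ccl5, Ccl4 and Cxcr3) and 4 lower (Itgae, Ctsw, Il2rb and Gzma). The unadjusted shares over all genes were 3.72% higher and 3.37% lower, and the list median log2 ratio was 0.20. Of the 14 genes of the list with single libraries, 4 had both Klrg1Cre libraries above and 4 both below both control libraries, against 19.3% and 18.3% of all such genes.

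Among the chemokine genes of this list, Ccl5 had 3.61 and 6.52 CPM in the larger and smaller Klrg1Cre libraries and 2.61 and 2.22 CPM in control (adjusted p = 0.606 in the authors' deposited table). Ccl4 had 2.84 and 3.57 CPM against 1.38 and 1.78 CPM (adjusted p = 0.610 in the authors' deposited table). Cxcr3, the receptor that T-bet induces to bring type 1 cells to inflamed tissue, had 12.5 and 23.6 CPM against 11.6 and 9.35 CPM (adjusted p = 0.638 in the authors' deposited table). All 3 had both Klrg1Cre libraries above both control libraries, with the smaller Klrg1Cre library the higher one. Without that library the log2 ratio was 0.58 for Ccl5 against 1.07 with all, 0.26 for Cxcr3 against 0.78, and 0.85 for Ccl4 against 1.02. Tbx21 and Nkg7 had their higher Klrg1Cre value in the larger library. For Tbx21 the counting intervals of the 2 Klrg1Cre libraries overlapped.

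The granule proteases did not share one direction. Gzma, encoding granzyme A, had 5 and 5 reads in the larger and smaller Klrg1Cre libraries and 27 and 29 reads in control, which are 0.192 and 0.343 against 0.809 and 0.907 CPM (adjusted p = 0.698 in the authors' deposited table). Ctsw, encoding cathepsin W, had 31.6 and 35.4 against 47.6 and 47.3 CPM (adjusted p = 0.412 in the authors' deposited table). Il2rb, a chain of the interleukin-2 and interleukin-15 receptors, had 89.6 and 96.7 against 119.3 and 124.96 CPM (adjusted p = 0.551 in the authors' deposited table). In all 3 the groups did not overlap. Gzmb, encoding granzyme B and far more abundant than Gzma, had 14.4 and 22.5 CPM in the larger and smaller Klrg1Cre libraries and 16.5 and 15.2 CPM in control, so its groups overlapped (adjusted p = 0.887 in the authors' deposited table). Of the other cytokine genes, Tnf stood at 4.73 against 4.40 CPM (adjusted p = 0.963 in the authors' deposited table). Il2 was far apart within each group, with 3 and 30 reads in Klrg1Cre and 15 and 3 in control (adjusted p = 0.873 in the authors' deposited table).

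**Figure D4:**
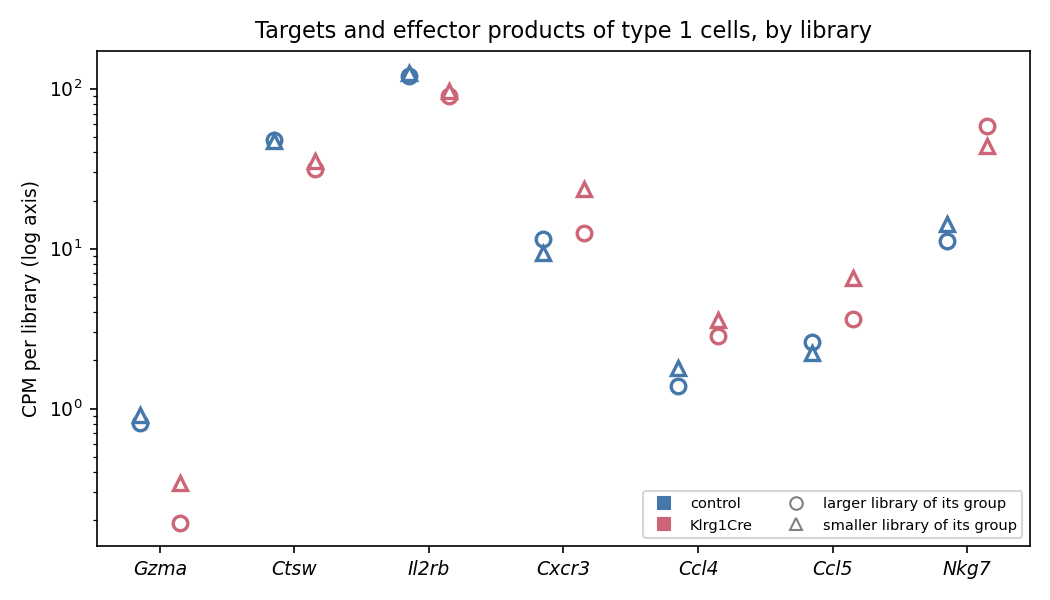
CPM per library (y, log axis) for the 7 targets and products with an unadjusted p below 0.05 and single libraries. Blue is control and red Klrg1Cre, circles the larger and triangles the smaller library; the genes were picked by that p, and their groups do not overlap, with Gzma, Ctsw and Il2rb lower and Cxcr3, Ccl4, Ccl5 and Nkg7 higher in Klrg1Cre.

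The stretch before the Nkg7 start is shown because Nkg7 was the 1 gene of this list that rose; it was chosen after its values were seen. It lies on the plus strand at chr7:43436888-43437072, ending just before the base where GENCODE M21 places the first exon of the gene.
Nkg7: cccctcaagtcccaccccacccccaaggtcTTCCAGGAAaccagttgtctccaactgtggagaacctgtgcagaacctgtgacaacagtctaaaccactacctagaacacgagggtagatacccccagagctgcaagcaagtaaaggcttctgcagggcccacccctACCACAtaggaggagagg
It holds a STAT match, TTCCAGGAA, at position -220 and a Runx match, ACCACA, at position -83. A T-box match, GGTGTG, follows at position -13 within the annotated exon and is not printed. Matches to all 3 motifs are found in 0.268% of the 32851 stretches.

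Genes on the type 2 side were measured beside the members, since T-bet and RUNX3 are known to repress several of them. Of these genes 6 had higher and 5 lower Klrg1Cre means. With adjustment 0 of 11 passed in the authors' deposited table. The median log2 ratio was 0.16, and 0.05 over genes whose larger group mean was 5 CPM or more. At an unadjusted p below 0.05 there were 3 with higher and 0 with lower Klrg1Cre means, against 3.72% and 3.37% of all genes. The 3 were Gata3 at 293.9 against 221.4 CPM (adjusted p = 0.551), Il5 at 12.4 against 5.08 CPM (adjusted p = 0.289) and Il13 at 12.4 against 6.33 CPM (adjusted p = 0.265 in the authors' deposited table). Il4, which T-bet and RUNX3 silence, had 2.60 against 2.26 CPM (adjusted p = 0.938 in the authors' deposited table). Zbtb7b, encoding the CD4-lineage factor ThPOK that opposes Runx3, had 13.5 against 10.3 CPM (adjusted p = 0.709 in the authors' deposited table). The 5 with lower means were Ccr8, Ccr4, Il1rl1, Maf and Stat6. Ccr8, a chemokine receptor of Th2 and regulatory T cells, was the lowest by ratio, at 76.7 against 97.6 CPM (adjusted p = 0.729 in the authors' deposited table).

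Natural killer cells, type 1 innate lymphoid cells and CD8 T cells also express Tbx21, Ifng and Runx3, and their markers were examined for that reason. Of 18 such markers 6 had a row in the deposited table, and Ncr1, Klrb1c, Klrd1, Klrk1, Eomes and Cd8a were among the 12 without one. Of the 6, 0 passed adjustment and Gzma alone had an unadjusted p below 0.05, with a lower mean, against 3.37% of all genes. The summed level of Gzma, Prf1, Cd160 and Cd8b1 was 2.23 and 4.74 CPM in the larger and smaller Klrg1Cre libraries and 3.89 and 4.57 CPM in control, so the groups overlapped. Prf1, encoding perforin, had 0.088 against 0.259 CPM (adjusted p = 0.816), and Cd160, a receptor of cytotoxic cells, 0.058 against 0.187 CPM (adjusted p = 0.839 in the authors' deposited table). Cd160 rested on 3 and 0 reads in the larger and smaller Klrg1Cre libraries and 1 and 11 in control, and its log2 ratio turned from -1.70 to 0.94 without the smaller control library. Prf1 had 1 and 2 against 11 and 6 reads, and its log2 ratio of -1.56 was -0.91 without the larger and -2.75 without the smaller Klrg1Cre library. All 6 markers summed to 47.1 and 31.3 against 31.8 and 41.8 CPM, mostly from Fcer1g and Tyrobp, which macrophages also express. Macrophage markers had 12 of 12 rows, 6 with higher and 6 with lower Klrg1Cre means, and summed deposited means of 1637 CPM in Klrg1Cre and 2407 in control, with Chil3, the most abundant of them, at 1124 against 1932 CPM (adjusted p = 0.599 in the authors' deposited table). Without Chil3 the other 11 summed to 512.5 CPM in Klrg1Cre and 474.6 in control, the opposite direction. Siglecf, a marker of alveolar macrophages and eosinophils, had 1.91 against 0.977 CPM (adjusted p = 0.729 in the authors' deposited table). Of the T cell markers, 11 of 14 had a row, 0 passed adjustment, and 5 had higher and 6 lower Klrg1Cre means. Cd247, the CD3 zeta chain, had 123.7 against 96.2 CPM (adjusted p = 0.612) and Cd2, an adhesion receptor, 131.8 against 154.3 CPM (adjusted p = 0.764 in the authors' deposited table).

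Regulatory T cells can carry ST2 and so remain in a CD4+ T1/ST2+ sort, and 12 of their markers were examined, a list chosen after values of these data were seen. Of the 12, 10 had lower and 2 higher Klrg1Cre means (Nrp1 and Il10). By the test of the authors' deposited table, 0 of 12 had an adjusted p below 0.05. Its unadjusted p was below 0.05 for 8 with a lower and 0 with a higher mean, against 3.37% and 3.72% of all genes. Foxp3, the factor that defines these cells, had means of 50.6 CPM in Klrg1Cre and 104.6 in control (adjusted p = 0.321 in the authors' deposited table). Ikzf2, encoding Helios, had 10.8 and 22.2 CPM in the larger and smaller Klrg1Cre libraries and 26.5 and 39.2 CPM in control (adjusted p = 0.494 in the authors' deposited table). Its groups did not overlap, with Klrg1Cre below, as was found for 18.3% of all genes with single libraries. All 12 markers summed to 416.4 CPM in Klrg1Cre and 623.8 in control, with a median log2 ratio of -0.74. The 5 with single libraries summed to 78.6 and 111.4 CPM in the larger and smaller Klrg1Cre libraries. In the larger and smaller control libraries they summed to 113.4 and 158.6 CPM, so the smaller Klrg1Cre library lay close to the larger control library. Itgae, given above, is also carried by regulatory T cells. The part of regulatory T cells and of the other cell types in the levels of the 4 genes and of their listed targets was not tested.

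Likeness to Tbx21 and Ifng was measured as the distance between profiles of log2(CPM + 1) over the 4 libraries after subtracting each gene's mean. The genes nearest to Tbx21 were Cox10 (distance 0.052), Pms2 (0.054) and Wdfy4 (0.064). Wdfy4 held 3.07 and 2.75 CPM in the larger and smaller Klrg1Cre libraries and 1.98 and 1.94 CPM in control. Nearest to Ifng were Dph5 (0.031), Apbb1ip (0.042) and Nipsnap1 (0.049). Klrg1Cre and control means were 2.89 and 2.16 CPM for Dph5, 14.2 and 11.4 for Apbb1ip and 7.79 and 6.20 for Nipsnap1. Adding 1 CPM shrinks the log2 ratio of Ifng from 1.05 to 0.30, so genes with small ratios come out near it. With 4 libraries such profiles are common: a Pearson r above 0.95 with Tbx21 was reached by 118 of 4241 other genes (2.78%), and with Ifng by 120 of 4242 (2.83%).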

How the data were processed

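RNA-seq of sorted lung Th2 cells was deposited as 1 table of the authors' comparison, made with STAR and Partek against mm9 per the submitters' processing notes, with no versions given. Its deposited values are group means in CPM with an offset of 0.0001 CPM, and a deposited signal per gene that equalled 2 times the sum of both means in 11883 rows. The deposited p-values come from a model not given in the sources used here, and their adjustment equalled Benjamini-Hochberg in 11883 rows. The deposited ratio is the quotient of the means, and the deposited fold change (unit other) is that ratio with a sign.

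Library totals were found from the lowest means, each mean being split into whole reads (tolerance 1e-09 reads, means up to 20000 CPM). On simulated means of 11883 genes at those totals, 100% of whole-read genes were recovered and 0 fractional ones were split. The search for the totals was not part of that simulation. The totals found explained 435 of 572 low means in Klrg1Cre and 376 of 531 in control. A count model was not used, since 45.0% of genes were recovered. The planned check was limma 3.58.1 in R 4.3.3 with a mean-variance trend, on log2(CPM + 1), for genes that could be split and averaged 1 CPM or more; a fit without that minimum was added after seeing the data. The planned fit was also run on simulated libraries, with changes larger than that of Tbx21. The outcome of that run is not reported here, so its power for a change like that of Tbx21 is unknown.

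Named genes are the 4 members and, in each list, those with an unadjusted p below 0.05 and, where fewer than 3 had one, the smallest p up to 3; other list genes are given for their role. Some genes that this rule names are not reported here. Likeness was measured among the split genes averaging 1 CPM or more, with the 3 nearest named. The members and lists were chosen with earlier results of these data known, and the regulatory T cell markers were added last. Alternatives were pseudocounts, scalings, minimum means and leaving out libraries. In those alternatives a gene met a minimum mean if the larger of its group means reached it. Promoter sequences are from RefSeq (GRCm38.p6), matched by symbol for 4 of 4 members.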

Additional observations from a re-analysis of the deposited data

How the results depend on the processing

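The log2 ratios of Tbx21, Ifng, Stat4 and Runx3 kept their sign in 28 of 28 alternative settings, which could not have turned it. A pseudocount cannot change the direction of a ratio, and both scaling shifts were smaller than any of the 4 ratios. Leaving out 1 library cannot either, since both Klrg1Cre libraries of Tbx21 and Ifng lay above both control libraries. With a pseudocount of 5 CPM the log2 ratio of Tbx21 was 0.19 against 0.59, and that of Ifng moved more, from 1.05 to 0.30 with a pseudocount of 1 CPM and to 0.08 with 5 CPM; a pseudocount by construction shrinks the ratios of low genes. Scaling to the listed genes without Rn45s shifted every log2 ratio by -0.03, and scaling by the median ratio by -0.02. The adjusted p of each of the 4 genes stayed above 0.05 in 9 of 9 settings. These adjusted p ran from 0.592 (Runx3, minimum mean of 5 CPM) to 0.916 (Stat4, minimum mean of 1 CPM). Ifng lies below both minimum means, so its 1 setting was limma without a minimum (adjusted p = 0.847). In the authors' comparison 7 genes passed, and 17 when p-values were adjusted over genes whose larger group mean was 5 CPM or more. Fewer genes were tested there, and such a minimum lets a gene in through the group where it is high. List medians kept their sign in 24 of 27 settings. Exceptions were the natural killer, ILC1 and CD8 T cell markers, at 0.07 and 0.15 with minimum means of 1 and 5 CPM against -0.76 (and -0.06 with a pseudocount of 1 CPM), and the macrophage markers, at -0.10 with a minimum of 1 CPM against 0.01. The type 2 list kept its sign but moved from 0.16 to 0.05 with a minimum of 5 CPM.

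No paired analysis was possible because the deposited columns are group means and the libraries worked out from them cannot be tied to the sample numbers 1 and 2. Libraries of Stat4 and Runx3 could not be left out in turn, since their means could not be split.

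Depth limits Ifng most, with 5 to 14 reads in each library, against 38 to 81 for Tbx21.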

Other observations

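The share of genes whose means were split into whole reads differed with the number of transcripts. Of 5867 genes with 1 curated RefSeq transcript, 81.2% were split in both groups, against 6.29% of 5358 genes with 2 or more. Tbx21 and Ifng have 1 such transcript each and were split, while Stat4 and Runx3 have 2 each and were not. Genes described by single libraries are therefore mostly single-transcript genes. In GENCODE M21 (GRCm38), Stat4 overlaps Gm28177 and Gm3940, Runx3 overlaps the antisense gene Gm16224 and Ifng overlaps Gm49751, none of which had a row in the table. Whether the kit kept strand is not given in the sources used here, so reads of Runx3 and of its antisense partner cannot be told apart.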
